A study of Sus scrofa with 20 samples.

Results

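The Frizzled and LRP Wnt receptors were followed in porcine longissimus muscle through every probe set of an expression array that carries the single gene symbol FZD1 to FZD8, LRP5 or LRP6. These 10 genes had 29 probe sets among 45922 porcine probe sets and 13609 gene symbols. The family was chosen by the FZD7 signal, selected on its difference between the breeds in these same arrays. Breed differences of the 29 probe sets are therefore a description, with no p given, and the one count of them past a threshold is printed for reference alone.

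Samples came from 10 adult Duroc and 10 adult Pietrain pigs, with 1 Affymetrix Porcine Snowball array per animal. Animals are named below by breed and the number in the labels. The Pietrain animals were homozygous negative for malignant hyperthermia syndrome, a trait of the ryanodine receptor gene RYR1, and are called PiNN; no such genotype is given for Duroc, and neither breed had a treatment. The labels give the muscle as taken 24 h before slaughter, whereas the methods describe the tissue for sequencing as collected after slaughter, and this was not resolved for the arrays.

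Wnt proteins are secreted lipid-modified ligands that bind the extracellular cysteine-rich domain of a Frizzled receptor. When a Wnt bridges a Frizzled to the co-receptor LRP5 or LRP6, the destruction complex is held back and beta-catenin accumulates and enters the nucleus. Frizzled receptors also act without LRP5 or LRP6 through branches that set cell polarity or raise calcium. In mouse muscle, Wnt signals are known for their roles in satellite cells, the muscle stem cells, and in regeneration and fibre growth.

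Values are log2 probe set signals, and differences are Duroc minus PiNN, so a negative difference is a higher signal in PiNN and a difference of 1 is a doubling. The mean of the 69 background probe sets, 3.93, served as a yardstick for detection. It is a weak one, because the means of single background probe sets ran from 1.23 to 7.85. Array medians lay between 4.61 and 4.73 and correlations between arrays between 0.953 and 0.986. The background of single arrays ran from 3.78 in Duroc 59 to 4.21 in PiNN 49, and its mean was 3.89 ± 0.13 in Duroc and 3.96 ± 0.12 in PiNN (SD, n = 10 each). The labelled tissue was checked by 8 muscle fibre markers, whose mean signal per animal ran from 12.92 to 13.15. Signals of different probe sets were not compared with each other as levels, since probes differ in how brightly they bind.

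FZD7 had a higher mean signal in PiNN at all 3 of its probe sets, by 1.64-fold, 1.22-fold and 2.32-fold for SNOWBALL_046663_st, SNOWBALL_018096_st and SNOWBALL_044919_st. FZD7 belongs with FZD1 and FZD2 to one branch of the Frizzled family and is known in mouse as the receptor through which WNT7A acts on satellite cells. The gene lies on chromosome 15 from 105644164 to 105648860 in the RefSeq annotation of Sscrofa11.1, and where in the gene each probe set binds is not given in the sources used here. At SNOWBALL_044919_st the Duroc animals ran from 4.54 to 5.59 with a median of 5.35. The PiNN animals ran from 5.88 to 6.999 with a median of 6.37. Every PiNN animal was above every Duroc animal, a separation that 0.122% of all tested probe sets had. The means were 5.21 ± 0.36 and 6.42 ± 0.33 (SD, n = 10 each), a difference of −1.21 with a standard error of 0.15.

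At SNOWBALL_046663_st, the brightest FZD7 probe set, Duroc ran from 6.48 to 7.48 with a median of 7.02. PiNN ran from 7.17 to 8.23 with a median of 7.67. Here 9 of 10 PiNN animals lay above the highest Duroc animal, and PiNN 35 alone fell among the Duroc values. The means were 7.02 ± 0.34 and 7.73 ± 0.31 (SD, n = 10 each), which differed by −0.72 with a standard error of 0.14. The third probe set, SNOWBALL_018096_st, had the smallest difference of the 3, at −0.29 with a standard error of 0.11. Its Duroc signals ran from 6.41 to 7.01 with a median of 6.77, and its PiNN signals from 6.57 to 7.54 with a median of 7.06. All 10 Duroc animals were below the PiNN median there, and 8 of 10 PiNN animals were above the highest Duroc animal. The mean over the 3 probe sets was 6.33 ± 0.27 in Duroc and 7.07 ± 0.28 in PiNN (SD, n = 10 each).

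**Figure D1:**
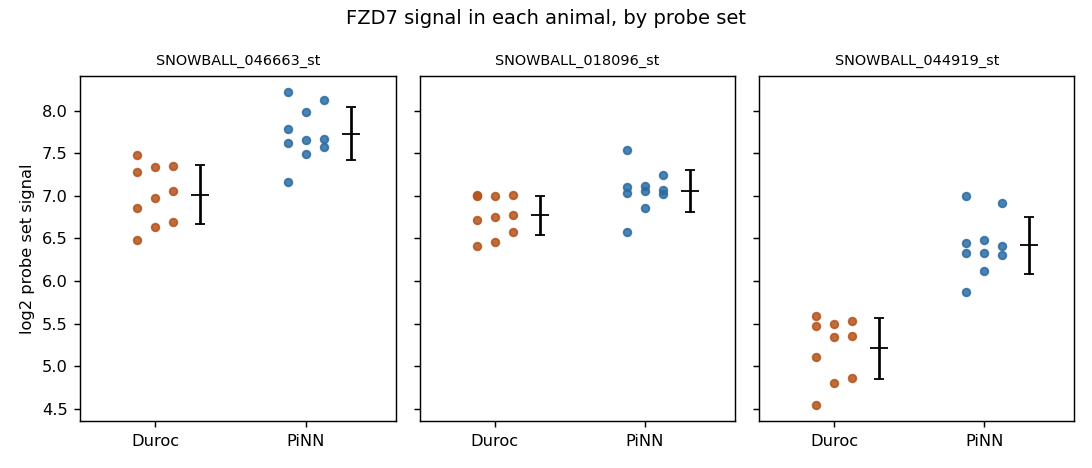
Log2 signal of the 3 FZD7 probe sets in each animal, with 1 panel per probe set on a shared vertical axis. Points are the 10 Duroc and 10 PiNN animals, and the bar is the mean with 1 SD. The breeds do not overlap at SNOWBALL_044919_st, overlap through PiNN 35 at SNOWBALL_046663_st, and lie closest together at SNOWBALL_018096_st.

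In PiNN the same animal, PiNN 41, had the highest signal at all 3 FZD7 probe sets, and PiNN 35 had the lowest at all 3. In Duroc, 3 different animals held the first rank, Duroc 58, Duroc 24 and Duroc 38. Correlations between the probe sets were computed within each breed, where the breed difference has no part. Over the 40 relations between probe sets of one gene that were above the background mean in both breeds, 39 had a Pearson r above 0. FZD4 gave 30 of these relations, in which the same probe sets recur, and no share over other genes was computed for comparison. Of the 40, 8 had a Benjamini-Hochberg adjusted permutation p under 0.05, and 6 did by Spearman's rho. For FZD7, r ran from 0.57 to 0.88 and rho from 0.44 to 0.72. The relation of SNOWBALL_046663_st with SNOWBALL_044919_st in PiNN was the only FZD7 relation to pass, with r = 0.88 (permutation p = 0.0014, adjusted p = 0.0112) and rho = 0.72 (permutation p = 0.0229, adjusted p = 0.103). It stayed at r = 0.67 without the 2 animals farthest from the median. For SNOWBALL_018096_st in PiNN, r fell from 0.76 to 0.11 with SNOWBALL_046663_st and from 0.71 to −0.08 with SNOWBALL_044919_st when 2 animals were left out, so these relations rest on those animals.

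FZD4 also had a higher mean signal in PiNN at every probe set, 7 of 7, with differences from −0.06 to −0.43. For SNOWBALL_021984_s_st this direction turned, to 0.02 without Duroc 43 and to 0.52 in the 7 animals that also had a methylation library. These were 4 Duroc and 3 PiNN animals, here and below, matched by number. The paper places all sequenced Duroc animals among those on the arrays, but a sequenced Duroc animal has a number that no array label carries. The animals counted as without a library may therefore include it. FZD4 is the receptor for norrin as well as for Wnts and is known for its role in the blood vessels of the retina. At SNOWBALL_025435_st, Duroc ran from 5.78 to 6.59 with a median of 6.35. PiNN ran from 6.21 to 7.08 with a median of 6.72. All 10 Duroc animals were below the PiNN median, while PiNN 20 and PiNN 49 lay within the Duroc range. The means were 6.28 ± 0.26 and 6.69 ± 0.25 (SD, n = 10 each), a difference of −0.41 with a standard error of 0.11.

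The brightest FZD4 probe set, SNOWBALL_012406_st, differed by −0.19 with a standard error of 0.13. It ran from 7.17 to 8.07 in Duroc with a median of 7.62, and from 7.38 to 8.16 in PiNN with a median of 7.84. The breeds overlapped over most of their range there. SNOWBALL_022095_st differed by −0.32, SNOWBALL_022320_s_st by −0.23 and SNOWBALL_026194_s_st by −0.06, with standard errors of 0.12, 0.13 and 0.11. SNOWBALL_021984_s_st had the widest spread of the 7, with an SD of 0.78 in each breed around a difference of −0.14. The largest FZD4 difference, −0.43 with a standard error of 0.27 at SNOWBALL_026219_st, was of a probe set above the background mean on 1 of 20 arrays. Of the 30 relations within a breed between the other 6 FZD4 probe sets, all had r above 0, from 0.22 to 0.93, and 7 had an adjusted permutation p under 0.05. SNOWBALL_026219_st had r with these 6 of 0.32 to 0.72 in Duroc and 0.04 to 0.25 in PiNN.

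FZD3 went the other way, with a higher mean in Duroc at 5 of 5 probe sets, but at signals near or under the background. FZD3 is known in mouse for planar cell polarity and the guidance of axons. At its brightest probe set, SNOWBALL_025817_st, Duroc ran from 3.71 to 5.08 with a median of 4.57. PiNN ran from 3.04 to 4.34 with a median of 3.93. No PiNN animal was above the Duroc median, and 7 of 10 Duroc animals were above the highest PiNN animal. The means of 4.50 ± 0.44 and 3.80 ± 0.43 (SD, n = 10 each) differed by 0.69 with a standard error of 0.18, and the PiNN mean was under the background mean. The other FZD3 probe sets differed by 0.34, 0.06, 0.05 and 0.01, and the last 3 were above the background mean on 0 of 20 arrays. The smallest of these, at SNOWBALL_030474_st, turned to between −0.03 and −0.002 without Duroc 31, 32, 38 or 59 or PiNN 19 or 47. In the animals with a methylation library it was −0.07 and SNOWBALL_025032_st −0.02.

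**Figure D2:**
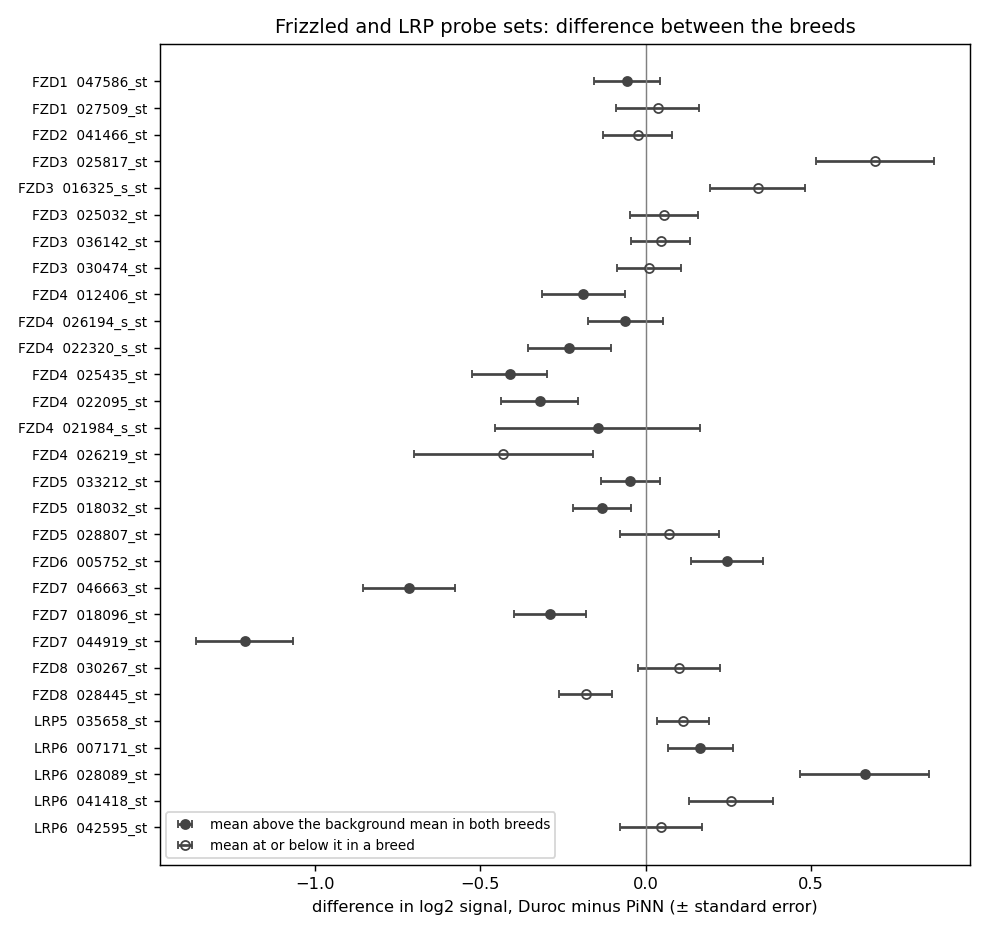
Difference in mean log2 signal, Duroc minus PiNN, for the 29 receptor probe sets, with bars of 1 standard error from the fit over all probe sets. Filled points are probe sets with a mean above the background mean in both breeds. All FZD7 and FZD4 probe sets lie left of 0, and all FZD3 and LRP6 probe sets lie right of it.

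The co-receptor LRP6, which carries the Wnt signal to the destruction complex through phosphorylation of its cytoplasmic tail, had a higher mean in Duroc at 4 of 4 probe sets. At the brightest, SNOWBALL_007171_st, Duroc ran from 8.01 to 8.42 with a median of 8.23, and PiNN from 7.73 to 8.63 with a median of 8.05. The difference was 0.17 with a standard error of 0.10, and the highest animal of all was PiNN 62. At SNOWBALL_028089_st, Duroc ran from 3.97 to 5.67 with a median of 4.95. PiNN ran from 3.58 to 5.08 with a median of 4.34. The breeds overlapped widely, although 9 of 10 Duroc animals were above the PiNN median, and the means differed by 0.66 with a standard error of 0.20. These 2 LRP6 probe sets did not rank the animals alike, with r of −0.20 in Duroc (permutation p = 0.577) and 0.52 in PiNN (permutation p = 0.119). The remaining LRP6 probe sets differed by 0.26 and 0.05, the latter above the background mean on no array and turning to −0.14 in the 13 animals without a methylation library.

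LRP5, the co-receptor known for its part in bone mass, had a single probe set with signals of 1.45 to 1.97 across all animals. It was above the background mean on no array, and its difference of 0.11 is one between signals under that mean. FZD2 was likewise above the background mean on no array, with 1.97 to 2.94 in Duroc, 2.19 to 2.65 in PiNN and a difference of −0.02. FZD8 was above it on 2 arrays with one probe set and on 0 with the other, and its differences were 0.10 and −0.18. A signal under this background does not show that the gene was silent in these animals.

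FZD6, which orients hair and inner ear cells in mouse, had 1 probe set above the background mean on all arrays. Its Duroc signals ran from 5.37 to 6.06 with a median of 5.83, and its PiNN signals from 5.17 to 5.93 with a median of 5.50. The means differed by 0.25 with a standard error of 0.11, with 8 of 10 Duroc animals above the PiNN median. FZD5, known as a receptor for WNT5A, and FZD1 differed by less than their standard errors at the brightest probe set. The brightest FZD5 probe set had medians of 6.08 in Duroc and 6.14 in PiNN and a difference of −0.05, with −0.13 and 0.07 at its other 2 probe sets. The brightest FZD1 probe set had medians of 5.28 and 5.34 and a difference of −0.06, and its second probe set, above the background mean on no array, differed by 0.04.

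**Figure D3:**
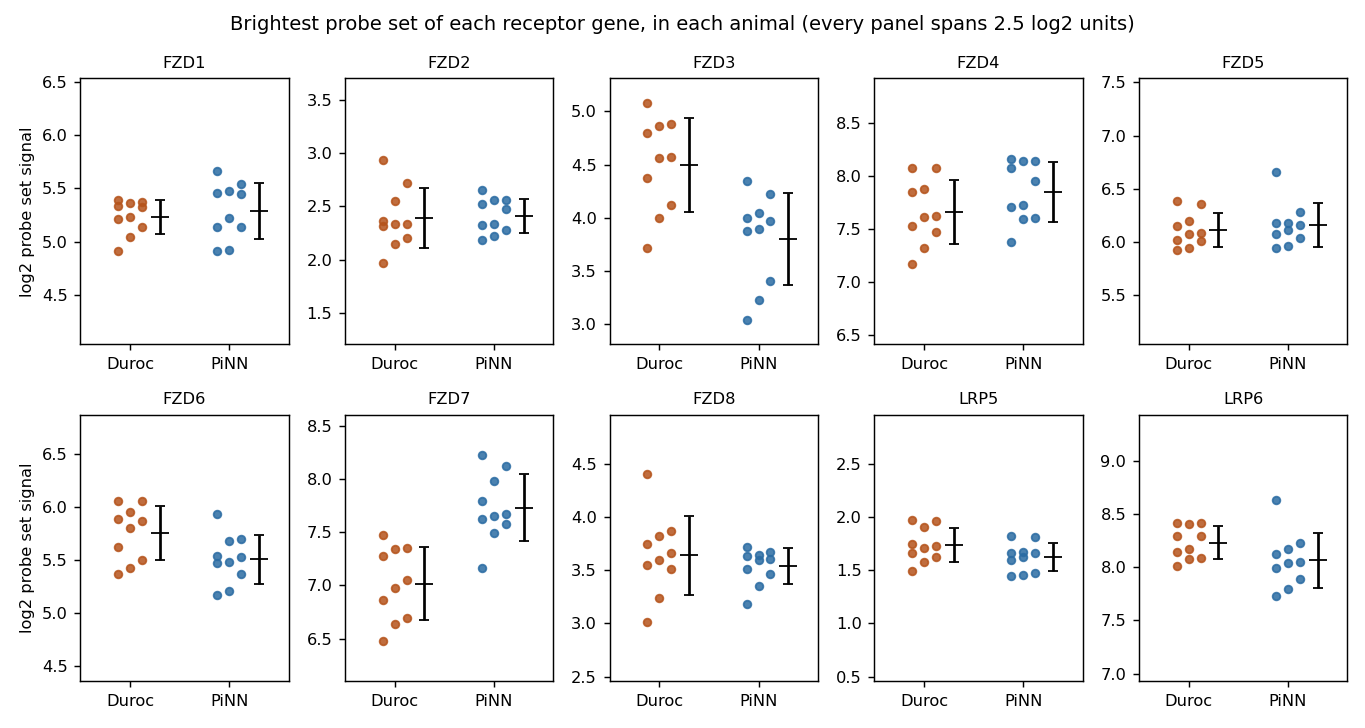
Log2 signal of the brightest probe set of each of the 10 receptor genes in each animal, with the mean and 1 SD beside the points. Each panel spans 2.5 log2 units from a start of its own, so heights of points can be compared within a panel and spreads across panels. FZD7 shows the widest separation of the breeds, FZD3 lies lower in PiNN, and FZD1, FZD2, FZD5 and FZD8 have medians close together. For FZD1, 5 of 10 PiNN animals lie above every Duroc animal, and for FZD8, 4 of 10 Duroc animals lie above every PiNN animal.

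Over the family, the higher mean was that of PiNN at 15 probe sets and that of Duroc at 14, with a median difference of −0.02. Over all tested probe sets the median was −0.02 as well, and 54.9% had the higher mean in PiNN. In the fit across all probe sets, 4 of the 29 had an adjusted p under 0.05, as had 4.17% of all tested probe sets, 1.41% higher in PiNN and 2.76% in Duroc. They were SNOWBALL_046663_st and SNOWBALL_044919_st of FZD7 and SNOWBALL_025435_st of FZD4, higher in PiNN, and SNOWBALL_025817_st of FZD3, higher in Duroc. Since the family was picked for FZD7 in this contrast, nothing is read from that count. Without FZD7, the median difference was 0.02. Of the 29 probe sets, 13 were above the background mean on every array, 9 on none, and 15 in the mean of both breeds. The near even split did not hold among these 15, of which 12 had the higher mean in PiNN, with a median difference of −0.14. Without FZD7 it was 9 of 12, with a median of −0.10, and FZD4 gave 6 of those 12 probe sets. No such share over all probe sets above the background mean was computed for comparison.

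FZD7 was then set against the other 9 receptor genes over the animals within each breed, with the brightest probe set of each. None of the 18 relations had an adjusted permutation p under 0.05, and 3 had an unadjusted p under it. All 3 were in Duroc. They were LRP6 with r = 0.77 and rho = 0.77 (permutation p = 0.0143 and 0.0122), FZD1 with r = 0.74 and rho = 0.72 (permutation p = 0.0141 and 0.0239) and FZD4 with r = 0.73 and rho = 0.75 (permutation p = 0.0206 and 0.0173). The adjusted p was 0.123 for each r and 0.143 for each rho. Without the 2 animals farthest from the FZD7 median, r was 0.67, 0.77 and 0.79. With each gene as the mean of its probe sets, r was 0.49 for LRP6 (permutation p = 0.148), 0.65 for FZD1 and 0.75 for FZD4. In PiNN the same genes had r of −0.04, 0.12 and 0.18, and the difference between the breeds in these correlations was not tested.

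**Figure D4:**
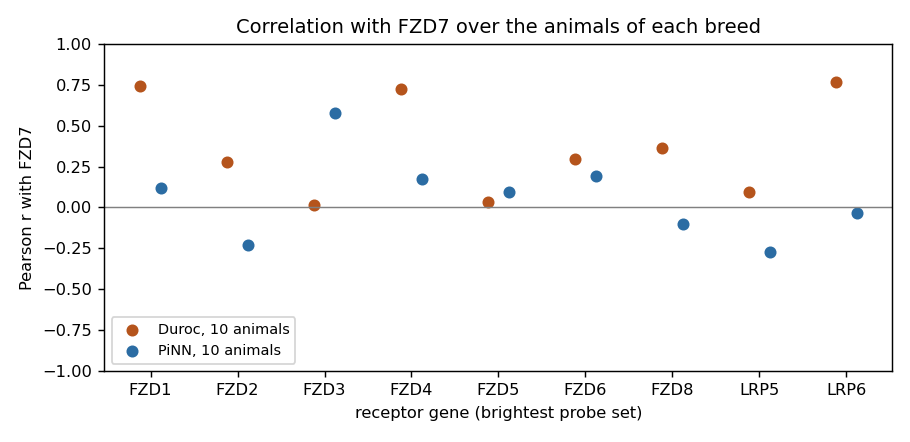
Pearson r of the brightest FZD7 probe set with the brightest probe set of each other receptor gene, over 10 Duroc and 10 PiNN animals. The points run from −0.27 to 0.77, and none had an adjusted permutation p under 0.05.

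Among 11233 genes above the background mean in both breeds, those most like FZD7 were sought by the lower of the within-breed correlations with SNOWBALL_046663_st. Each gene was represented by its probe set with the highest such value, whether or not it was the brightest. This value had a median of −0.11 over these genes. The 5 highest were YAP1, a co-activator of the Hippo pathway, with r of 0.82 in Duroc and 0.83 in PiNN, the kinase SGK1 with 0.79 and 0.86, EIF4ENIF1, which carries the cap-binding protein eIF4E, with 0.78 and 0.84, the kinase ALPK2 with 0.78 and 0.92, and the cadherin FAT4 with 0.85 and 0.77. With SNOWBALL_044919_st in Duroc, r was 0.73 for YAP1 and 0.77 for ALPK2, and lower for the others, at 0.46 for SGK1, 0.55 for EIF4ENIF1 and 0.24 for FAT4. With SNOWBALL_018096_st in Duroc, r was 0.67 for YAP1 and 0.68 for SGK1, but 0.35 for ALPK2, 0.36 for FAT4 and 0.27 for EIF4ENIF1. These are the highest of many values over few animals and carry no p. Across the breeds, at the probe sets kept for their correlation, the mean signal of SGK1 was 6.68 in Duroc and 7.22 in PiNN. At theirs, YAP1, EIF4ENIF1, ALPK2 and FAT4 differed by between −0.13 and 0.12.

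The question of whether other genes of the Wnt pathway differed between the breeds was addressed with lists of 117 genes, of which 98 were on the array, each by its brightest probe set. With p adjusted over all tested probe sets, 5 of these passed at 0.05, 4 higher in Duroc and 1 in PiNN, or 5.10%. Over the brightest probe sets of all genes the share was 6.39%, with 4.06% higher in Duroc and 2.33% in PiNN. The median difference of the 98 genes was −0.04 against −0.03 over all genes. The higher mean was that of PiNN in 66 of 98, a larger share than the 56.7% of all genes, and this was not tested. The share of pathway genes that passed was thus near the background.

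Of the Wnt ligands, 0 of 15 on the array passed in limma and 1 had an unadjusted p under 0.05, and 12 had the higher mean in PiNN, beside 56.7% of all genes. The largest difference was of WNT4, at 6.63 ± 0.22 in Duroc and 6.84 ± 0.16 in PiNN (SD, n = 10 each), with limma adjusted p = 0.211. WNT10B, a ligand that restrains fat cell formation in mouse, differed by −0.16 (limma adjusted p = 0.699). PORCN, the enzyme that attaches the lipid to Wnts, differed by −0.06.

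Among the R-spondins and the genes of receptor turnover, LGR5 was higher in Duroc and 8 others did not pass. LGR5 binds R-spondins, which spare Frizzled and LRP receptors from removal at the cell surface. Its Duroc signals ran from 5.87 to 6.99 with a median of 6.32, and its PiNN signals from 5.49 to 6.27 with a median of 6.003. The breeds overlapped, with 9 of 10 Duroc animals above the PiNN median. The difference was 0.47 with a standard error of 0.13 (limma adjusted p = 0.0404), and its second probe set of similar brightness differed by 0.36 (limma adjusted p = 0.0692). ZNRF3, a ligase that removes Frizzled receptors from the surface, differed by 0.15, and RSPO1 by −0.13, neither past the threshold.

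Of the 12 other receptors, co-receptors and related membrane proteins, 0 passed in limma, with 1 at an unadjusted p under 0.05. Of the 13 inhibitors, secreted or at the cell surface, 0 passed, with 0 at an unadjusted p under 0.05. The Wnt receptor kinase RYK differed by 0.24 and the syndecan SDC4, which is found with FZD7 on mouse satellite cells, by −0.23 (limma adjusted p = 0.435 and 0.172). FRZB, a secreted decoy related to Frizzled receptors, differed by −0.30, and DKK2, which binds LRP5 and LRP6, by 0.26 (limma adjusted p = 0.423 and 0.536). All 4 overlapped between the breeds.

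Of 13 cytoplasmic transducers, GSK3A was higher in PiNN and the other 12 did not pass, while 5 of the 13 had an unadjusted p under 0.05. GSK3A is a kinase of the destruction complex and also acts on glycogen synthase. Its signals ran from 8.10 to 8.60 in Duroc with a median of 8.28, and from 8.31 to 8.76 in PiNN with a median of 8.62. All 10 Duroc animals were below the PiNN median. The difference was −0.28 with a standard error of 0.08 (limma adjusted p = 0.0380), and the second GSK3A probe set differed by −0.51 (limma adjusted p = 0.0272). Its close relative GSK3B pointed the other way, with a difference of 0.22 at the brightest probe set (limma adjusted p = 0.158) and 0.63 at SNOWBALL_029878_st (limma adjusted p = 0.0144). GSK3B was singled out after its values were seen. The kinases CSNK1A1 and CSNK1G2 differed by 0.25 and −0.23 without passing.

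Of the 9 nuclear factors and the 7 feedback and target genes, 0 passed in limma, and 3 and 1 had an unadjusted p under 0.05. The beta-catenin partner BCL9 came nearest, with −0.27 (limma adjusted p = 0.0662) and all 10 Duroc animals below the PiNN median, and PYGO1 differed by 0.22 (limma adjusted p = 0.265). BCL9 did pass under some of the other settings (limma adjusted p down to 0.0314). AXIN2, a common readout of beta-catenin activity, had 4.92 ± 0.35 in Duroc and 5.18 ± 0.16 in PiNN (SD, n = 10 each), a difference of −0.27 (limma adjusted p = 0.234). The myostatin antagonist FST differed by −0.15 (limma adjusted p = 0.472).

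Of 18 genes in the polarity and calcium branch, 3 passed in limma, all higher in Duroc, or 16.7%, beside 4.06% of all genes. This list was one of 9. The list as a whole was not higher in Duroc, since 13 of the 18 had the higher mean in PiNN and the median difference was −0.02. An unadjusted p under 0.05 was found for 7 of the 18. ROCK2, a kinase below the small GTPase RHOA, ran from 8.33 to 9.64 in Duroc with a median of 9.13. In PiNN it ran from 7.93 to 9.13 with a median of 8.24. All 10 Duroc animals were above the PiNN median, and the difference was 0.69 with a standard error of 0.16 (limma adjusted p = 0.0155). Of the 4 ROCK2 probe sets 2 passed. The others differed by 0.44 (limma adjusted p = 0.114) and, at a mean signal under the background mean, by −0.15. PPP3CA, a catalytic subunit of the calcium-dependent phosphatase calcineurin, ran from 8.49 to 10.04 in Duroc with a median of 9.51, and from 8.24 to 9.15 in PiNN with a median of 8.74. It differed by 0.71 with a standard error of 0.18 (limma adjusted p = 0.0249), and 3 of its 4 probe sets passed. CAMK2D, a calcium and calmodulin dependent kinase, had medians of 9.81 and 9.39 and differed by 0.36 with a standard error of 0.10 (limma adjusted p = 0.0331). RAC1 and DAAM1, of the polarity branch, differed by −0.27 and 0.25 without passing (limma adjusted p = 0.178 and 0.159). The other DAAM1 probe sets did not share its direction clearly, with −0.16 at SNOWBALL_003257_st and 0.005 at SNOWBALL_046420_st. Leaving out single animals ended the call of LGR5, GSK3A or CAMK2D in at least 11 of the 20 fits, that of PPP3CA without Duroc 46 or PiNN 36, and that of ROCK2 in none. ROCK2 lost its call in the animals with and in those without a methylation library (limma adjusted p up to 0.186).

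**Figure D5:**
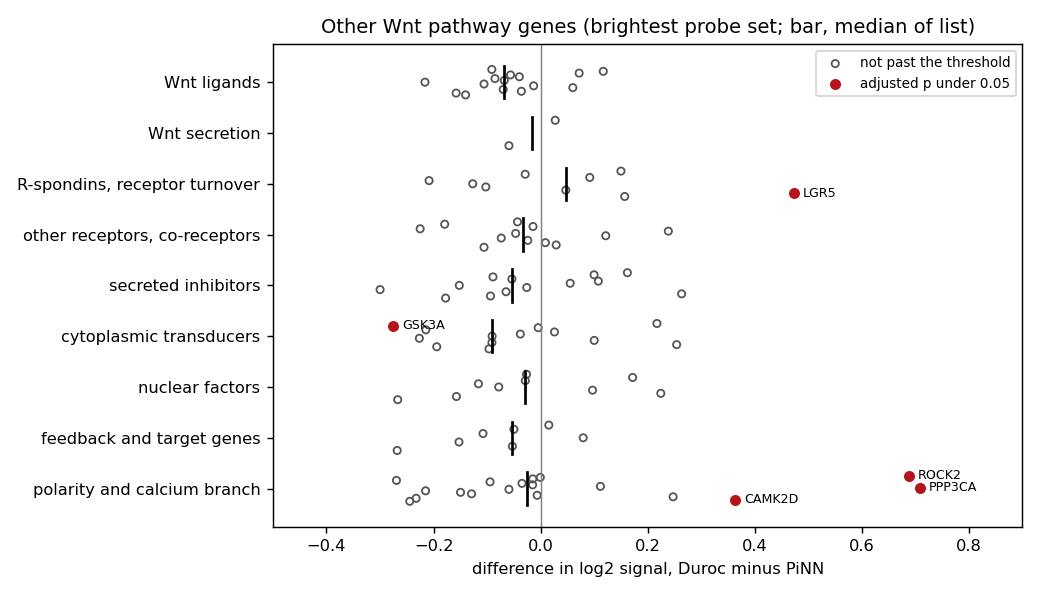
Difference in mean log2 signal, Duroc minus PiNN, of 98 other Wnt pathway genes by list, each by its brightest probe set. Filled points have a limma adjusted p under 0.05, and the vertical bar is the median of the list. The 5 filled points are LGR5, ROCK2, CAMK2D and PPP3CA, higher in Duroc, and GSK3A, higher in PiNN.

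The arrays measured whole muscle, in which fewer cells of a type and less RNA per cell cannot be told apart. Of 10 satellite cell markers on the array, 0 passed in limma and 2 had an unadjusted p under 0.05. The median difference was −0.02, and their mean signal ran from 5.85 to 6.19 in Duroc and from 5.97 to 6.21 in PiNN. PAX7, which defines satellite cells, had 6.25 ± 0.28 and 6.13 ± 0.25 (SD, n = 10 each), and MYF5 was under the background mean in both breeds. The 2 with an unadjusted p under 0.05 had the higher mean in PiNN, NCAM1 by −0.27 (limma adjusted p = 0.161) and CDH15 by −0.16 (limma adjusted p = 0.248), and were named after their values were seen. All 8 slow fibre markers had the higher mean in Duroc with a median difference of 0.26, although 0 passed in limma and 0 had an unadjusted p under 0.05. Their mean signal ran from 9.94 to 11.01 in Duroc and from 9.12 to 10.81 in PiNN. RGS5, a marker of pericytes, was higher in Duroc by 0.84 with a standard error of 0.15 (limma adjusted p = 0.00327), while the other 3 of 4 pericyte and smooth muscle markers did not pass, with differences of −0.17 for ACTA2, −0.16 for MYH11 and 0.01 for CSPG4. The median of the 4 was −0.07. The mean signal of these 4 ran from 7.25 to 7.67 in Duroc and from 7.13 to 7.73 in PiNN. No marker of the fibre in general, fat cells, fibroblasts, endothelium, Schwann cells or leukocytes passed in limma, and their median differences lay between −0.07 and 0.22. The part of these cell types in the receptor differences was not tested.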

How the data were processed

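Longissimus muscle RNA of 10 Duroc and 10 PiNN pigs was hybridised to 1 Affymetrix Porcine Snowball array per animal. The values deposited by the authors are log2 probe set signals, already summarised and normalised. The method is not given in the sources used here, and the submitters' processing notes name GCOS version 1.1.1. No array was left out, and 1923 control, background and other-species probe sets were not tested. A linear model with breed as its single term was fitted by limma (3.58.1, R 4.3.3, lmFit then eBayes, two-sided tests), adjusting p-values by Benjamini-Hochberg over 45922 probe sets at a threshold of 0.05. Animals are separate samples, and their number limits the precision.

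A gene was represented by its brightest probe set, by mean over the 20 arrays, except in the search for genes like FZD7. There the probe set that correlated best with FZD7 was kept for each gene. Platform annotation gave a single symbol for 26058 probe sets and did not give a single symbol for the other 19864. Chromosome positions came from RefSeq, Sscrofa11.1, the build named for the sequencing. Correlations used 100000 two-sided permutations within a breed. The receptors and gene lists were chosen with earlier results of these data known. The text gives the difference of every receptor probe set and names each passing pathway gene, the 2 largest other differences per list among genes above background in both breeds, and 5 genes most like FZD7. The fit was checked on simulated data. Alternatives changed the normalisation, centring, moderation, variance model, array weights, background, brightness filter, probe set choice, multiple testing and animals.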

Additional observations from a re-analysis of the deposited data

Results flagged for a closer look

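Of 58 groups of 10 animals, 1 per receptor probe set and breed, 4 had an animal farther from the rest than Dixon's test allows at the 95% level. Chance flags about 1 in 20 groups. In FZD4 SNOWBALL_021984_s_st, PiNN 49 was lowest at 3.65, with the next PiNN animal at 5.20. The same animal, whose array had the highest background, was highest in FZD5 SNOWBALL_033212_st at 6.66, with the next at 6.28. In FZD3 SNOWBALL_016325_s_st, PiNN 36 was lowest at 2.76, with the next at 3.31. In FZD3 SNOWBALL_036142_st, Duroc 59 was lowest at 1.21, with the next at 1.53, in a probe set that was under the background mean on every array. No FZD7, FZD1, FZD2, FZD6, FZD8, LRP5 or LRP6 group was among the 4.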

How the results depend on the processing

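No paired analysis was possible because the breeds share no animal number. The direction of FZD7, for which the family was chosen, is no sign of stability. Its difference had a range over the fits that leave out 1 animal of −0.78 to −0.66 at SNOWBALL_046663_st, −0.34 to −0.24 at SNOWBALL_018096_st and −1.27 to −1.14 at SNOWBALL_044919_st. Replaced by the mean of its probe sets, FZD7 differed by −0.74, which moved the value of the latter 2. The sign turned under at least 1 setting at 10 of the 29 receptor probe sets, 5 of them with 1 animal left out, none of them of FZD7 or FZD6.

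The count of 5 pathway genes was 2 with arrays centred on their medians, and 1 in the animals with and 1 in those without a methylation library. It ran from 1 (without Duroc 46 or PiNN 36) to 6 with 1 animal left out, and was from 4 to 7 under the other settings. Without 1 animal, LGR5 lost its call in 12 of 20 fits (adjusted p up to 0.0809), GSK3A in 12 (up to 0.0738), CAMK2D in 11 (up to 0.0662) and PPP3CA in 2 (up to 0.0522). Under the other 9 settings LGR5 lost it in 5 (adjusted p up to 0.386), CAMK2D in 4 (up to 0.253), GSK3A in 3 (up to 0.735), and ROCK2 and PPP3CA in 2 each (up to 0.186 and 0.388). With 1 animal left out, LGR5 lost it without Duroc 38, 42, 43, 46, 58 or 59 or PiNN 20, 21, 22, 36, 41 or 47, GSK3A without Duroc 24, 28, 32, 43, 46 or 58 or PiNN 19, 20, 22, 35, 36 or 41, and CAMK2D without Duroc 38, 42, 43, 46, 58 or 59 or PiNN 19, 21, 22, 35 or 36. In the animals with a methylation library, RAC1 reversed to 0.15 and ZNRF3 to −0.083, and in those without, RSPO1 reversed to 0.017. Calls were also gained, in 9 of 638 combinations of a setting and one of the 22 named pathway genes. BCL9 stayed uncalled in only 4 of the 9 other settings (limma adjusted p down to 0.0314). For RAC1 the limma adjusted p fell as low as 0.0237. The count of all tested probe sets was 3135 with array weights, 389 and 585 in the animals with and without a methylation library, and 1174 to 2489 with 1 animal left out. The share of these calls that was higher in Duroc was 66.1%, against 48.5% with the array background as a covariate and 92.0% and 32.8% in the animals with and without a methylation library. No relation of FZD7 with another receptor passed under either alternative, and that with LRP6 in Duroc fell to r = 0.49 with means of all probe sets. The causes were not tested.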
